A study of Homo sapiens with 4 samples.

Results

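The glycolysis and glucose uptake genes examined here were 10 genes chosen by name: the glucose transporters *SLC2A1* (GLUT1) and *SLC2A3* (GLUT3), the hexokinases *HK1* and *HK2*, the platelet-type phosphofructokinase *PFKP*, the regulatory kinase *PFKFB3*, and *GAPDH*, *ENO1*, *PKM* and *LDHA* of lower glycolysis and lactate formation. They are 10 of 19962 protein-coding genes in the annotation, and the rule that names them uses no measured value, although they were chosen with earlier results of these data known. For each gene, the H3K27ac peaks within 1 kb of its canonical start site (the promoter) and within 50 kb of the annotated gene (the locus) were taken from the deposited peak lists. H3K27ac is the acetylation of lysine on histone H3 that is found at active promoters and enhancers, and it was mapped by ChIP-seq, the sequencing of DNA fragments recovered with an antibody against the mark.

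There were 4 lists, from 2 replicates each of MDA-MB-231 and Hs578T, which are established human triple-negative breast cancer (TNBC) lines that lack oestrogen receptor, progesterone receptor and HER2 amplification. Every library came from cells that were starved in optimem for 8 h, exposed for 48 h to TWEAK, a cytokine, at 10 ng/ml, and then put through a washout of 72 h per the design text, although the study elsewhere describes a longer one. Untreated or continuously treated cells were not analysed here. The values therefore cannot be read as a response to TWEAK or to washout, and acetylation is not expression. The list labelled MDA-MB-231 replicate 1 stood apart: it held 209 peaks on chromosomes 1 to 22 and X, against 43353 in MDA-MB-231 replicate 2, 46330 in Hs578T replicate 1 and 44920 in Hs578T replicate 2. The latter 3 are called the large lists below, and MDA-MB-231 is then represented by 1 library. As a check of the labelled cells, the promoters of all 5 mesenchymal markers examined (*VIM*, *AXL*, *CD44*, *ZEB1*, *FN1*) carried a peak in each large list and none of 5 luminal or epithelial markers (*ESR1*, *GATA3*, *FOXA1*, *CDH1*, *ESRP1*) did in any list.

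Glucose enters the cell through the transporters of the SLC2A family and is trapped as glucose 6-phosphate by hexokinase. Phosphofructokinase commits the sugar to glycolysis, and PFKFB3 makes fructose 2,6-bisphosphate, its allosteric activator. GAPDH, enolase and pyruvate kinase carry the triose phosphates to pyruvate, which lactate dehydrogenase A reduces to lactate. Many tumours take up glucose and release lactate at high rates even when oxygen is present, and several of these genes are known targets of HIF-1 and MYC.

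The sequence before 3 start sites is shown as examples of the 4 promoters that, once annotated untranslated exons were left out, held at least 2 copies of the 5-base core of the hypoxia response element (ACGTG or GCGTG, on either strand). Bases are given along the gene from hg38, at most 250 before the start site, with the cores in capitals. CACGT is the core ACGTG on the opposite strand, and CACGTG, the E-box, holds ACGTG on both strands, which gives the 2 copies of *PFKFB3*.
LDHA promoter (chr11:18394313-18394559, plus strand): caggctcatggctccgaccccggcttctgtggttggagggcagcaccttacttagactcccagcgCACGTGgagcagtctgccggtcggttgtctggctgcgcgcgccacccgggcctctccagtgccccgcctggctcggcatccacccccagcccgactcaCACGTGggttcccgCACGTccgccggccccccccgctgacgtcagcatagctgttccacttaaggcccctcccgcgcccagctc
HK2 promoter (chr2:74833877-74834126, plus strand): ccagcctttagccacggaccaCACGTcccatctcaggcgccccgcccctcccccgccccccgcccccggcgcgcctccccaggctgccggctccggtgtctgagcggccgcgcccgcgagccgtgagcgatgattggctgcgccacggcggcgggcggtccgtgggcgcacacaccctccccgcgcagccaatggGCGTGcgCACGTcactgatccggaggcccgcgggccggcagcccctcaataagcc
PFKFB3 promoter (chr10:6202682-6202865, plus strand): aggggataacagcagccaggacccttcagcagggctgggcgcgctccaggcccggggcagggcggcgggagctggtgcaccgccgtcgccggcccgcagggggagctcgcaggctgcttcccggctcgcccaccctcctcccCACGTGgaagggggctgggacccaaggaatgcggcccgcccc

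Over 250 bases before to 50 after each start site, all 10 genes held ACGTG or GCGTG, compared with 56.5% of 19961 protein-coding promoters of this length. ACGTG was found at 6 of the 10 (23.3% of all promoters), GCGTG at 7 (44.9%), the E-box CACGTG at 2, *LDHA* and *PFKFB3* (8.75%), the GC box GGGCGG at 8 (61.3%), and TATAAA at 3 (9.73%). The *LDHA* promoter held 5 matches to ACGTG, 4 of which are the opposite strands of its 2 E-boxes. The 3 genes with TATAAA were *SLC2A1*, *SLC2A3* and *GAPDH*, and it began 31, 29 and 29 bases before the start site, respectively. The promoters were rich in G and C, with a median of 70.5% (range 52 to 80%) compared with 63.7% over all promoters, and the median ratio of observed to expected CpG was 0.894 compared with 0.776. The lowest of both measures belonged to *SLC2A3*, at 52% and 0.480. Such short words recur by their base composition, and a match says nothing on binding of a factor.

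All 10 promoters were marked in each large list. A peak overlapped the promoter window of 10 of 10 genes in MDA-MB-231 replicate 2, Hs578T replicate 1 and Hs578T replicate 2, where 58.1%, 58.2% and 56.4% of all protein-coding genes had one, and 55.6% had one in all 3. In the list labelled MDA-MB-231 replicate 1 the count was 0 of 10, where 0.0601% of all genes were marked, and the nearest peak of that list lay between 1.83 Mb (*PFKP*) and 43.0 Mb (*LDHA*) from the gene. The mean over the MDA-MB-231 lists was therefore 5 ± 7.07 genes (SD, n = 2), or 10 without replicate 1, and that over the Hs578T lists was 10 ± 0 (SD, n = 2). The lines were not tested against each other: the 4 libraries can be split by line in 3 ways, so the smallest two-sided exact permutation p is 0.333, and 1 of the 4 lists was nearly empty. Fold enrichment, the pileup of H3K27ac reads over the local background, depends on the background of each library, so its size is given per list and the genes are compared by rank within a list.

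The promoters ranked higher by width than by fold enrichment. Each peak has a single fold enrichment and no summit value, whatever its width. Ranks and ratios of fold enrichment, here and below, therefore set wide and compact peaks side by side over unlike extents. How far the fold enrichment of a peak depends on how widely it was called was not tested. Among all promoter peaks of a list, the median rank of the 10 genes by fold enrichment was 67.8%, 60.4% and 60.8% in MDA-MB-231 replicate 2, Hs578T replicate 1 and Hs578T replicate 2, where 100% is the strongest, and values below keep this order of lists. By width, the median rank was 91.7%, 95.3% and 91.5%. Their median width was 4738, 6861 and 4701 bp, compared with 1759, 1848 and 1762 bp for all promoter peaks. In each large list 4 of the 10 (*SLC2A1*, *GAPDH*, *ENO1*, *PKM*) had a promoter peak over 10 kb wide, compared with 1.45%, 1.95% and 1.504% of all promoter peaks.

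**Figure D1:**
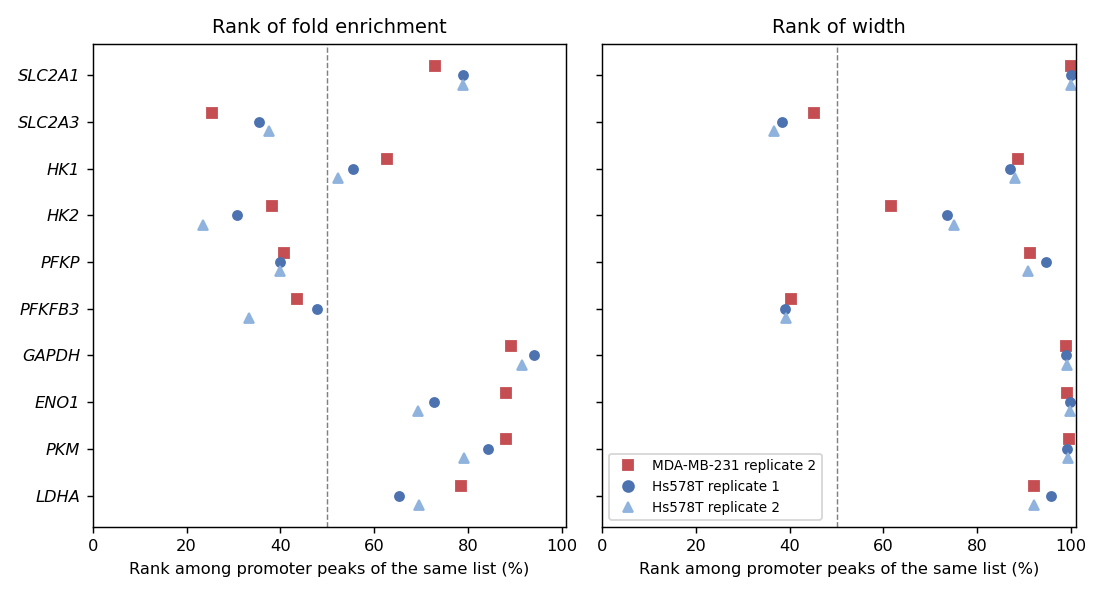
Rank of the promoter peak of each gene among all promoter peaks of the same list, by fold enrichment (left) and by width (right), in percent with 100 as the highest. Each point is 1 list, and the dashed line is the median rank of 50. *SLC2A1*, *GAPDH*, *ENO1* and *PKM* lie above 98% by width in all 3 lists, while *SLC2A3* and *PFKFB3* lie below 50% on both axes.

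*SLC2A1* (ENSG00000117394.24, chr1:42925353-42958893, minus strand) encodes GLUT1, the basal transporter of many tissues and tumours. Its promoter peak was 36.6 kb wide in MDA-MB-231 replicate 2, 36.8 kb in Hs578T replicate 1 and 29.1 kb in Hs578T replicate 2, and it was the widest, 5th widest and 4th widest promoter peak of the list. It began 922, 718 and 550 bp upstream of the start site and ran through the whole gene, so that peaks covered 100%, 100% and 96.6% of the gene body. In Hs578T replicate 2 the domain was called as 2 peaks, the second of 6586 bp over the 3' end. Fold enrichment was 12.8, 12.9 and 10.6, at ranks of 72.9%, 78.9% and 79.1%. Upstream lay a second peak at the start site of a lncRNA (ENSG00000283973), with fold enrichments of 12.5, 12.3 and 11.1, and an intergenic peak 7.9 kb from the start site, with 9.21, 8.85 and 7.77. All 3 lists thus held the same 3 regions at this locus.

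*SLC2A3* (ENSG00000059804.17, chr12:7919230-8019007, minus strand) encodes GLUT3, a high-affinity transporter best known from neurons. Its promoter peak was among the smaller of the set: 1634, 1544 and 1408 bp wide with fold enrichments of 5.93, 6.29 and 5.60, at ranks of 25.4%, 35.4% and 37.5%. A longer annotated transcript starts 82820 bp upstream, and no list had a peak within 1 kb of that start site. Inside the intron of that transcript, a peak 33.1 to 33.8 kb upstream of the canonical start site reached 11.1, 12.4 and 10.0. The strongest peak within 50 kb of the annotated gene lay 89.6 to 89.8 kb upstream of the canonical start site, in intergenic sequence between the longer transcript and *FOXJ2*. Its fold enrichment was 37.3, 30.9 and 25.6, which placed it above 99.8%, 99.4% and 99.4% of all peaks of its list, and it was 2138, 2306 and 2025 bp wide. Which gene it acts on is not given by these data.

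*HK1* (ENSG00000156515.25, chr10:69269984-69401884, plus strand) is the hexokinase present in most tissues. Its promoter peak was nearly the same width in the 3 lists, 4107, 4148 and 3991 bp, and reached 2777, 2789 and 2800 bp upstream of the start site. Fold enrichment was 10.9, 8.61 and 6.92, at ranks of 62.7%, 55.4% and 52.2%. The alternative start sites 48863 and 40351 bp upstream had no peak within 1 kb in any list. Within intron 2, beginning 28.9 to 29.1 kb downstream, a peak had fold enrichments of 12.2, 18.0 and 14.8, and in MDA-MB-231 replicate 2 it was called as a single region of 5796 bp.

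*HK2* (ENSG00000159399.10, chr2:74834127-74893359, plus strand) is the insulin-responsive hexokinase of muscle and fat and is often raised in tumours. Its promoter peak was 2110, 2785 and 2733 bp wide, with fold enrichments of 7.40, 5.82 and 4.56, at ranks of 38.3%, 30.9% and 23.6%. It reached 58, 103 and 396 bp upstream of the start site, compared with 2051, 2681 and 2336 bp downstream. The strongest peak of the locus was in intron 1, between 7.0 and 12.8 kb downstream, with fold enrichments of 17.7, 17.8 and 14.2, or 2.40, 3.06 and 3.12 times that of the promoter. A second, in intron 2 about 30 kb downstream, had 15.7, 12.4 and 11.3, and one across the 3' end of the gene had 11.4, 11.7 and 10.6. Peaks covered 32.0%, 31.4% and 34.8% of the gene.

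*PFKP* (ENSG00000067057.19, chr10:3066333-3137718, plus strand) encodes the platelet isoform of phosphofructokinase. Its promoter peak was 4627, 6481 and 4540 bp wide and lay almost wholly downstream: it began 26 and 124 bp upstream of the start site in MDA-MB-231 replicate 2 and Hs578T replicate 1, and 52 bp downstream in Hs578T replicate 2. Fold enrichment was 7.74, 6.76 and 5.81, at ranks of 40.7%, 39.9% and 40.01%. Intron 2 held a domain of 10911, 14150 and 12261 bp with fold enrichments of 23.5, 24.9 and 21.7, or 3.04, 3.68 and 3.74 times the promoter. It was above 97.5%, 98.3% and 98.5% of all peaks of the list. A further peak of 4250, 4509 and 4134 bp lay at an internal start site of *PFKP* 37176 bp downstream, which begins a shorter transcript, and had fold enrichments of 22.1, 20.5 and 15.8. In Hs578T replicate 2 this peak began just past that start site.

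*PFKFB3* (ENSG00000170525.21, chr10:6144934-6254644, plus strand) had a promoter peak of 1518, 1559 and 1473 bp that extended 1461, 1460 and 1445 bp downstream but 56, 98 and 27 bp upstream. Fold enrichment was 8.08, 7.67 and 5.28, at ranks of 43.5%, 47.9% and 33.3%. The alternative start site 57998 bp upstream was marked as well, with 8.05, 5.92 and 5.41. The strongest peak lay in the intron between these start sites, 44.1 to 46.7 kb upstream of the canonical one, with fold enrichments of 22.03, 23.1 and 17.9. Another in intergenic sequence, 71.4 to 73.4 kb downstream, had 19.3, 18.2 and 17.6, and one 37.98 to 40.2 kb upstream, had 12.5, 12.3 and 9.57.

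Over all genes with a promoter peak, the widest promoter peak reached a median of 792, 829 and 798 bp upstream and 895, 928 and 890.5 bp downstream of the start site. Peaks that reached under 400 bp upstream were found at 20.6%, 18.9% and 20.5% of marked genes, and at 3 of the 10 members, *HK2*, *PFKP* and *PFKFB3*. The limit of 400 bp was set after these values were seen.

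**Figure D2:**
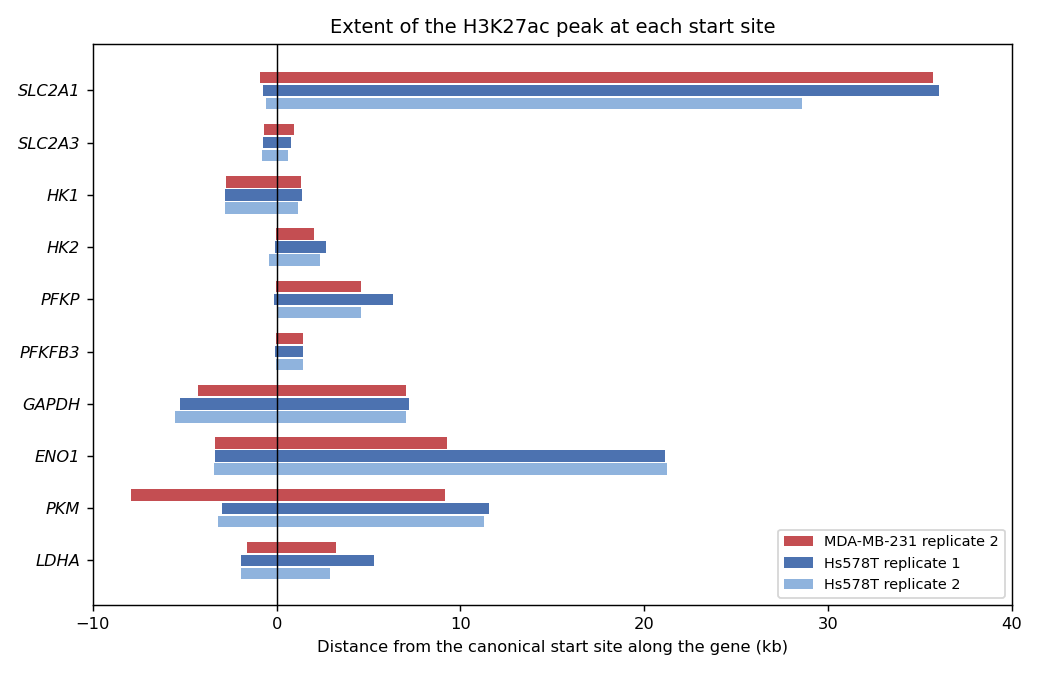
Extent of the promoter peak of each gene along the gene, in kb from the canonical start site (black line), with 1 bar per large list. The *SLC2A1* peak extends about 36 kb downstream in 2 lists and 28.6 kb in the other, and the *HK2*, *PFKP* and *PFKFB3* peaks begin within 400 bp of the start site.

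*GAPDH* (ENSG00000111640.15, chr12:6534512-6538374, plus strand) had the strongest promoter of the 10 by rank, 89.3%, 94.1% and 91.4%, with fold enrichments of 18.1, 19.5 and 14.2. Its peak of 11363, 12459 and 12553 bp covered the gene of 3863 bp completely and ran into the 3' parts of *NCAPD2* and *IFFO1*, but held no other protein-coding start site. The strongest other peak of the locus, 37.9 to 41.8 kb upstream at the shared start region of *MRPL51* and *NCAPD2*, had fold enrichments of 22.9, 16.1 and 14.0.

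*ENO1* (ENSG00000074800.16, chr1:8861000-8879190, minus strand) encodes alpha-enolase. Its promoter peak was 12595 bp wide in MDA-MB-231 replicate 2, where it ended 9244 bp into the gene, and 24464 and 24669 bp in the Hs578T replicates, where it covered the gene. Peaks of any kind covered 89.3%, 100% and 100% of the gene body. Fold enrichment was 17.5, 11.5 and 8.92, at ranks of 88.1%, 72.7% and 69.3%. The wider peaks thus had the lower rank. However, MDA-MB-231 replicate 2 called most of the rest of the gene as separate peaks, with 4.86 and 3.09. The Hs578T replicates joined this stretch to the promoter peak, so the fold enrichments describe unlike extents. Intergenic peaks upstream were called in all 3 lists, the strongest 10.2 to 10.4 kb from the start site with 14.9, 13.6 and 10.8.

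*PKM* (ENSG00000067225.21, chr15:72199029-72231819, minus strand) encodes the M1 and M2 pyruvate kinases. In MDA-MB-231 replicate 2 a single peak of 17081 bp with fold enrichment 17.5 spanned from 7897 bp upstream to 9183 bp downstream. In the Hs578T replicates largely the same stretch was called as a promoter peak of 14513 and 14475 bp, with 14.5 and 10.6, and a separate upstream peak of 4238 and 3598 bp, with 19.8 and 17.7. Peaks covered 47.9%, 69.5% and 65.8% of the gene.

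*LDHA* (ENSG00000134333.15, chr11:18394560-18408425, plus strand) had a promoter peak of 4848, 7240 and 4861 bp with fold enrichments of 14.1, 10.1 and 8.95, at ranks of 78.5%, 65.4% and 69.5%. An intergenic peak 8.4 to 12.3 kb upstream was stronger, with 26.3, 31.5 and 24.8, or 1.87, 3.12 and 2.77 times the promoter, and lay above 98.5%, 99.5% and 99.2% of all peaks of the list. A weaker peak at the 3' end of the gene, over the start site of a lncRNA (ENSG00000256006), had 6.17, 6.88 and 8.31.

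The strongest peak was usually not at the start site, which held for most marked genes of the genome too. At 7, 8 and 9 of the 10 loci the strongest peak lay away from the promoter, compared with 61.2%, 63.5% and 64.5% of all marked genes. *SLC2A1* was the exception in MDA-MB-231 replicate 2 and Hs578T replicate 1, *GAPDH* in both Hs578T replicates, and *ENO1* and *PKM* in MDA-MB-231 replicate 2. At *PKM* the strongest Hs578T peak lay largely within the stretch that MDA-MB-231 replicate 2 called as a single promoter peak. At *SLC2A1* in Hs578T replicate 2 the values were close, 11.1 against 10.6 at the promoter. In total 80, 87 and 89 peaks lay within 50 kb of the genes. In MDA-MB-231 replicate 2, 23 of 80 were in an intron of the canonical transcript of a member, 8 were in an intron of a longer transcript, 13 were intergenic, and 9 were at the start site of another protein-coding gene.

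**Figure D3:**
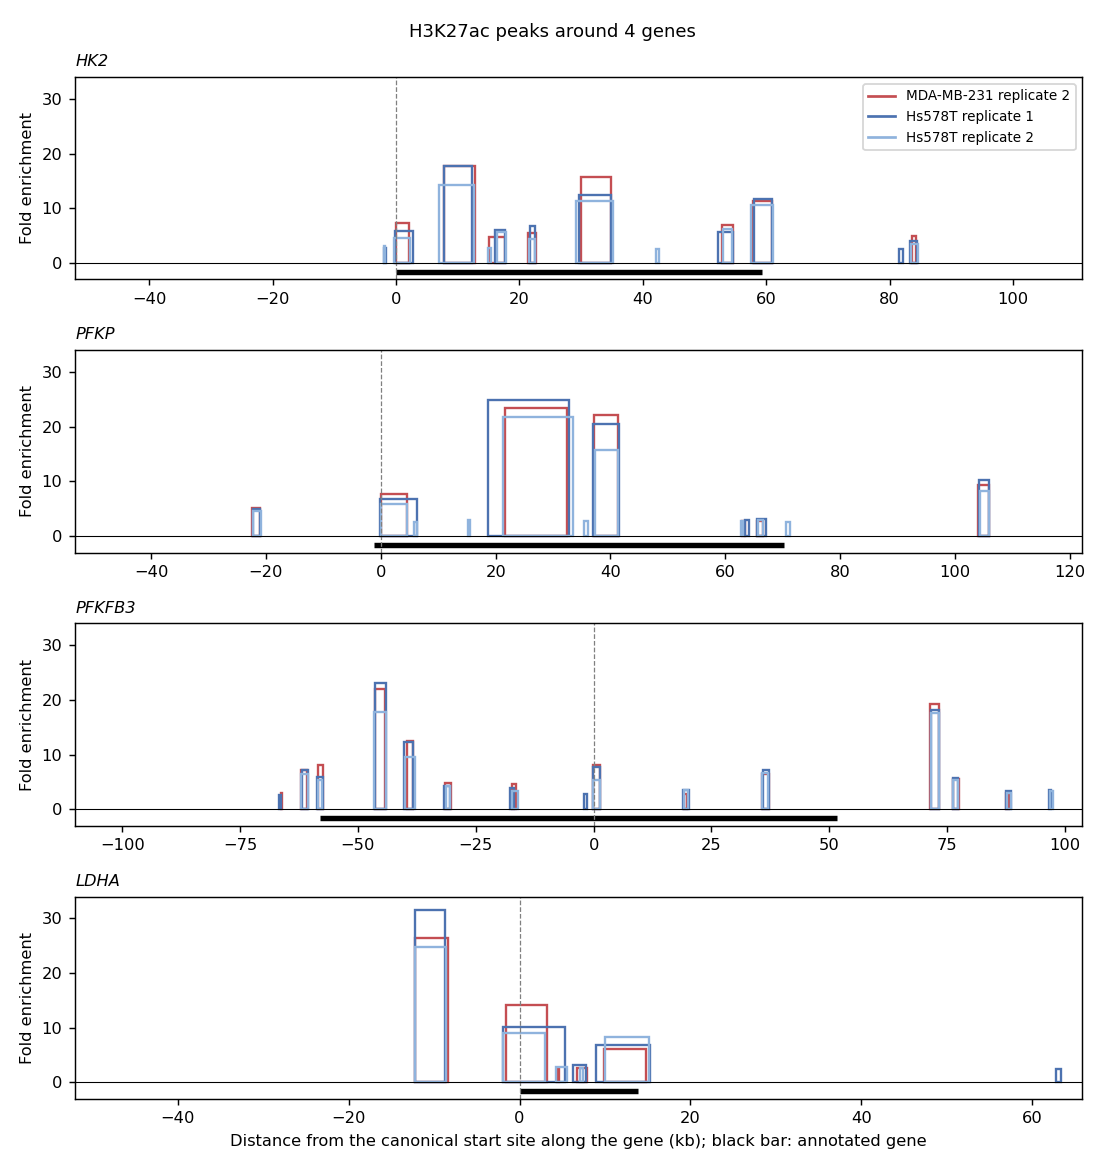
H3K27ac peaks within 50 kb of *HK2*, *PFKP*, *PFKFB3* and *LDHA*, by distance from the canonical start site (kb, dashed line), with the height of each box giving its fold enrichment and 1 outline colour per large list. The black bar is the annotated gene. In each map the tallest boxes lie away from the start site, and their heights are to be compared within 1 list.

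The AP-1 motif TGACTCA is bound by the JUN and FOS families. It was searched on both strands in peaks over 2.5 kb from the canonical start site of every annotated gene. Peaks at other annotated start sites were not left out. In their central 500 bp it occurred in 10 of 43, 8 of 46 and 8 of 51 such peaks near the 10 genes (23.3%, 17.4% and 15.7%), compared with 33.6%, 32.3% and 32.1% of all such peaks. Over whole peaks the shares were 44.2%, 45.7% and 43.1%, compared with 51.9%, 51.1% and 50.3%. In the part shared by the 3 lists, of the strongest such peak of each locus, the *PFKP* intron 2 domain held 8 matches over 10911 bp, the *HK2* intron 1 peak 3, the *PFKFB3* upstream peak and a peak upstream of *SLC2A1* 2 each, and the *HK1* intron 2 peak 1. Those of *SLC2A3*, *ENO1*, *PKM* and *LDHA* held none, over 264 to 1910 bp, and *GAPDH* had no such peak in all 3 lists. The peaks searched at *ENO1* (2.96, 2.86 and 3.11), *PKM* (3.60, 3.22 and 3.19) and *LDHA* (2.69, 3.10 and 2.69) had low fold enrichments. The stronger upstream peaks of these genes described above did not meet the distance of 2.5 kb in every list, so they were not among those searched here. The 3 matches of *HK2* and 1 of those of *PFKFB3* are shown with 30 bases on either side, from hg38, the motif in capitals, on the strand that reads TGACTCA.
HK2 intron 1 site 1 (chr2:74843533-74843599, minus strand): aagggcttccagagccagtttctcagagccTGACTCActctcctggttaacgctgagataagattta
HK2 intron 1 site 2 (chr2:74844113-74844179, minus strand): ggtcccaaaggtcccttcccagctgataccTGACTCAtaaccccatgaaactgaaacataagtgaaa
HK2 intron 1 site 3 (chr2:74845528-74845594, plus strand): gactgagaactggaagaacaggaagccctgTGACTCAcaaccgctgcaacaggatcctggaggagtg
PFKFB3 upstream site (chr10:6157555-6157621, minus strand): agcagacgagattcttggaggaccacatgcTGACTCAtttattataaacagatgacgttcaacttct

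The 10 windows of gene plus 50 kb on either side added up to 1574 kb. Peaks covered 245 kb of it in MDA-MB-231 replicate 2 (15.5%), 277 kb in Hs578T replicate 1 (17.6%) and 263 kb in Hs578T replicate 2 (16.7%), and 0 in MDA-MB-231 replicate 1. The Hs578T mean was 269667 ± 9878 bp (SD, n = 2), and the MDA-MB-231 mean of 122305 ± 172965 bp (SD, n = 2) joins a list with no peak there. The median share of a window was 13.9%, 17.3% and 15.6%, compared with 3.78%, 4.17% and 3.82% over all protein-coding genes. Of those genes 58.1%, 58.2% and 56.4% had a promoter peak, whereas all 10 members had one. Part of the gap is therefore built into the comparison, and windows of marked genes alone were not compared. *ENO1* had the most covered window, at 32.1%, 34.1% and 33.5%, followed by *SLC2A1* at 31.3%, 31.4% and 30.4%. *SLC2A3* had the least, at 5.30%, 6.57% and 5.49%, and *PFKFB3* was next at 7.32%, 8.76% and 8.00%.

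MDA-MB-231 replicate 2 covered fewer bases than both Hs578T lists at 9 of the 10 genes and lay between them at *SLC2A1*. Over all protein-coding genes it was below both at 40.1% and above both at 18.9%. The remaining 41.0% hold ties as well as genes between the Hs578T lists, and genes with no covered base in any list count as ties. All 10 members had covered bases in each large list, so these shares are not a like background. The list as a whole covered less as well, 81.8 Mb against 90.7 and 83.9 Mb, and the share of each list that fell near the 10 genes was 0.299%, 0.305% and 0.313%. With the same number of top peaks from each list the count below both stayed at 9, and with the strongest 50% it was 8. By rank of promoter fold enrichment MDA-MB-231 replicate 2 was above both Hs578T lists at 6 genes, between them at 1 and below both at 3, compared with 40.4%, 21.98% and 37.6% of the 11108 genes marked in all large lists. By width of the promoter peak it was above both at 2, between at 4 and below both at 4, compared with 30.1%, 34.1% and 35.8%. These counts set 1 library of one line against 2 of the other and were not tested, and whether line or library sets them cannot be told apart.

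**Figure D4:**
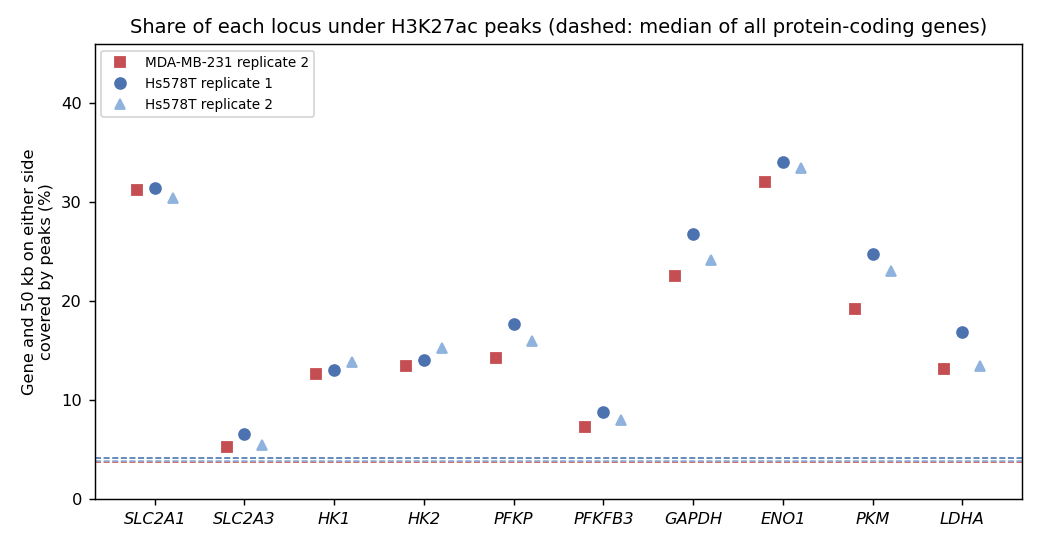
Share of each gene and its 50 kb flanks covered by H3K27ac peaks, in percent, with 1 point per large list. Dashed lines are the medians over all protein-coding genes in each list, 3.78 to 4.17%, and all 10 genes lie above them in the 3 lists. The medians include genes without a promoter peak.

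After merging the peaks of the large lists by an overlap of 1 bp, 93 regions lay near the 10 genes. Of these, 67 (72.0%, 95% Wilson interval 62.2 to 80.1%, which covers counting error only) were called in all 3 lists, compared with 74.8% of the 50576 merged regions of the genome. A further 10 were called in 2 lists and 16 in 1. The regions called in 1 list reached a fold enrichment of at most 2.996 and those in 2 lists at most 3.79, while those in all 3 had a median of 7.74 for their strongest peak. For regions called in all 3 lists, the strongest peak is picked from more lists, which by itself raises that value. The regions near these genes that a list lacked were weak in the lists that called them. Their fold enrichment was not compared with that of such regions over the genome. Peaks within shared regions still differed in extent, as at the *ENO1* promoter. The Hs578T lists shared 7 regions (7.53%) that were missing from MDA-MB-231 replicate 2, compared with 5.51% of regions in the genome. MDA-MB-231 replicate 2 had 2 of its own (2.15%, compared with 3.79%). All 3 regions at *SLC2A1* were called in each large list, whereas 4 of 9 were at *PKM*.

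Of 56 further genes of glucose uptake, glycolysis and lactate handling, 31 (55.4%) had a promoter peak in all large lists, a share near the 55.6% of all genes, and 23 had none in any. Isozymes or paralogues of the 10 genes and of their neighbours in the pathway without a promoter peak included *HK3*, *PFKFB1*, *GAPDHS*, *PGK2*, *PGAM2*, *PKLR*, *LDHC*, *LDHAL6A* and *LDHAL6B*. *HKDC1* was marked in Hs578T replicate 2, at 2.76. By step, 6 of 14 other transporters, 10 of 13 genes of upper glycolysis, 5 of 9 of lower glycolysis, 3 of 8 of the lactate group and 5 of 6 of pyruvate entry were marked in all 3 lists.

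Some paralogues had promoter peaks with higher fold enrichment than the related gene among the 10. *PFKFB2*, a paralogue of *PFKFB3* best known from heart, had fold enrichments of 25.0, 26.5 and 22.4. The muscle enolase *ENO3* had 27.1, 18.9 and 15.3, in peaks of 7102, 12580 and 7233 bp. Whether the promoter peaks of these other pathway genes also covered the start site of a neighbouring gene was not examined. The aldolase *ALDOA* had 21.2, 17.7 and 12.7. The lactate transporter *SLC16A7* (MCT2) had 19.4, 21.3 and 17.0 and *SLC16A3* (MCT4) 16.2, 8.81 and 11.2, whereas *SLC16A1* (MCT1) had no promoter peak at its canonical start site. *LDHB*, which favours the conversion of lactate to pyruvate, had 9.10, 9.28 and 9.25. *PGK1*, with 7.15, 12.6 and 10.6, was the single gene of the pathway marked in the short MDA-MB-231 list, at 2.57.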

How the data were processed

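H3K27ac ChIP-seq had been performed in MDA-MB-231 and Hs578T, and per the labels and the methods of the study the authors trimmed reads with Trimmomatic, mapped them to hg38 with Bowtie2, called peaks per library with MACS2 against input and removed blacklisted regions. Versions and settings were not given in the sources used here. Each deposited peak has a score (10 times the −log10 q-value, without decimals), a fold enrichment ratio over local background, and the −log10 p and −log10 q values from the authors. The fold enrichment was used to describe and rank peaks within a list. Read totals are not in the lists, so depth is unknown and weak peaks may be missed in a shallower library.

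Start sites were those of Ensembl canonical transcripts in GENCODE release 44 on assembly 38. Gene bodies were those of the whole annotated gene over all its transcripts, and the 50 kb flanks were counted from them. No peak lay on an unknown sequence or past its end (pysam 0.24.0, Python 3.11.15). Where several peaks overlapped a promoter, the widest was taken. Promoter and peak sequences were read from hg38. The overlap, coverage and merging steps were checked on simulated peaks. The 10 genes, the pathway and marker lists and the motifs were chosen with earlier results of these data known, and TATAAA was added after the promoters had been read. All 10 genes are described, and other pathway genes are given by counts, with isozymes of the members named. Some items of these lists and sequences are not reported here. Only some of the neighbouring genes with a peak at their start site are named. The genes named for strong promoters among the other pathway genes were chosen after their values were seen. Peak numbers, promoter windows, flanks, merging and start sites were varied, and each replicate was left out.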

Additional observations from a re-analysis of the deposited data

How the results depend on the processing

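No paired analysis was possible because the results come from no test, and replicate numbers only name the libraries. Of 75 values recomputed for the main results, 59 moved by less than the spread between replicates and 16 by more, as did 76 of 329 values of single genes. For ranks and widths in MDA-MB-231, which rest on 1 list, that spread was taken from Hs578T. For promoter counts and covered length in MDA-MB-231 the spread includes the nearly empty list, so a move within it says little on stability. All 10 genes kept a promoter peak in every large list under each alternative run on this count except the strongest 50% of peaks, where 9 did. The mean over the MDA-MB-231 lists ranged from 0 to 10 genes when a replicate was left out. With the strongest 50% of each list, the Hs578T covered length was 232271 bp, 92% of merged regions were in all large lists, and the median promoter rank was 57.7% in MDA-MB-231 and 53.6% in Hs578T. With the same number of top peaks 80.7% of merged regions were in all large lists, and leaving out a replicate gave 72.0 to 80.9%. Flanks of 10 and 100 kb gave Hs578T covered lengths of 212127 and 309717 bp. With the start sites of all basic transcripts the median rank was 76.3% in MDA-MB-231 and 69.7% in Hs578T. A promoter window of 2.5 kb gave 69.1% and 62.2%, and one of 500 bp gave 60.2% in Hs578T. These moves follow from the settings themselves, which change the peaks, the bases or the start sites counted.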
